A study of Homo sapiens with 6 samples.

Results

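The genes described here make polyamines, break them down or control these steps. They are ODC1, AMD1, SRM and SMS for synthesis, SAT1, SMOX and PAOX for breakdown, and OAZ1, OAZ2 and AZIN1 for regulation. The 10 genes were chosen by symbol among the 62754 genes of the count table. All 10 were found, 9 had enough counts to be tested, and PAOX was low, without 10 counts in 3 libraries. RNA was sequenced from HK-2 cells, an immortalized human line of proximal tubule epithelium, in 3 libraries per group. Both groups received Cisplatin, a platinum drug that damages DNA and injures the proximal tubule. Cells of the CP+siNC group were transfected with NC siRNA, a negative control, and cells of the CP+siNAT10 group with siRNA against NAT10, an RNA and protein acetyltransferase. Neither dose nor duration is part of the labels, and the methods of the study select 20 µM for 24 hours in these cells. Both groups carry Cisplatin, so the comparison shows the effect of the NAT10 siRNA in its presence and not the effect of the drug. Total counts were between 19321665 and 25192736 per library.

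Polyamines are small, positively charged molecules that bind RNA and DNA and are needed for cell growth. ODC1 makes putrescine from ornithine, AMD1 prepares the aminopropyl group from S-adenosylmethionine (SAM), SRM adds it to form spermidine, and SMS adds another to form spermine. SAT1 acetylates spermidine and spermine for export or for oxidation by PAOX, and SMOX oxidizes spermine directly with release of hydrogen peroxide. The antizymes OAZ1 and OAZ2 bind ODC1 protein and direct it to the proteasome, and AZIN1, an inactive relative of ODC1, binds the antizymes. Induction of SAT1 and SMOX by platinum drugs is well known in tumour cell lines, and SAT1 is known to be induced in the injured proximal tubule.

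The targeted gene was examined first. NAT10 was at 75.8, 71.4 and 73.2 CPM (counts relative to library sizes scaled by the trimmed mean of M values) in CP+siNC, and at 41.3, 40.5 and 42.5 CPM in CP+siNAT10. All 3 siNAT10 libraries lay below all siNC libraries. The log2 fold change of CP+siNAT10 against CP+siNC was -0.82 (SE 0.0426), with an adjusted p = 2.79e-15 (edgeR's quasi-likelihood test, Benjamini-Hochberg adjustment over 19874 genes). The level fell by 43.5%, so NAT10 mRNA was reduced but not lost.

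Markers were checked against the label of the cells. Epithelial keratins were abundant, with KRT8 at 1455 ± 21.1 CPM in CP+siNC (SD, n = 3) and 1450 ± 18.7 CPM in CP+siNAT10 (SD, n = 3), and the renal regulator PAX8 was at 31.4 ± 1.34 and 47.2 ± 4.48 CPM (SD, n = 3 each). Of the genes of the mature proximal tubule, ANPEP, MME, CUBN, LRP2 and SLC34A1 were low, with at most 0.374 CPM in any library, AQP1 was at 1.03 and 0.694 CPM, and GGT1 was at 33.2 and 27.4 CPM. The 16 epithelial and tubule markers summed to between 2210 and 2310 CPM per library, and 11 of them were tested, with 4 higher, 4 lower and 3 not called in CP+siNAT10 (21.8% higher and 22.3% lower among all tested genes). The 3 endothelial markers summed to at most 0.514 CPM. Of 4 immune markers, CD14 was the most abundant and the list summed to 2.07, 2.15 and 1.40 CPM in CP+siNC and 1.90, 2.47 and 2.41 CPM in CP+siNAT10. PTPRC, a leukocyte marker, had only 8, 10 and 7 counts in CP+siNC and 10, 29 and 17 in CP+siNAT10. At 0.419 and 0.824 CPM on average it was called higher, with an adjusted p = 0.0411 (edgeR quasi-likelihood, Benjamini-Hochberg). Most of this difference came from siNAT10 replicate 2, and siNAT10 replicate 1 was close to the siNC libraries. CD3E and LYZ were low. Of 4 fibroblast markers, COL1A1 was at 10.5 and 13.7 CPM and was called higher, LUM was at 11.2 and 11.5 CPM and was not called, and DCN and PDGFRA were low. The fibroblast list summed to 21.5, 22.7 and 21.1 CPM in CP+siNC and 22.7, 29.2 and 23.7 CPM in CP+siNAT10, and the part of these markers in the results on polyamine genes was not tested.

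Of the 9 tested polyamine genes, 6 differed between the groups at an adjusted p under 0.05, or 66.7%, against 44.1% of all tested genes. ODC1, AMD1, SRM and SMOX were higher in CP+siNAT10, which is 4 genes where 21.8% of all tested genes were called higher. OAZ1 and AZIN1 were lower, which is 2 genes where 22.3% of all tested genes were called lower, and the call of OAZ1 was lost under 5 of 12 alternatives. The changes were small. None of the 9 tested genes reached a log2 fold change of 1 in size in edgeR or DESeq2 at any p-value, while 2.33% of all tested genes passed this limit and the adjusted p. The groups did not overlap for 7 of the 9 genes, against 51.4% of all tested genes. The median log2 fold change was 0.005 over the 9 genes and 0.007 over all tested genes. The p-values measure only the spread between these libraries, since nothing states that they came from separate cultures, and bulk RNA cannot tell fewer expressing cells from less RNA per cell.

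**Figure D1:**
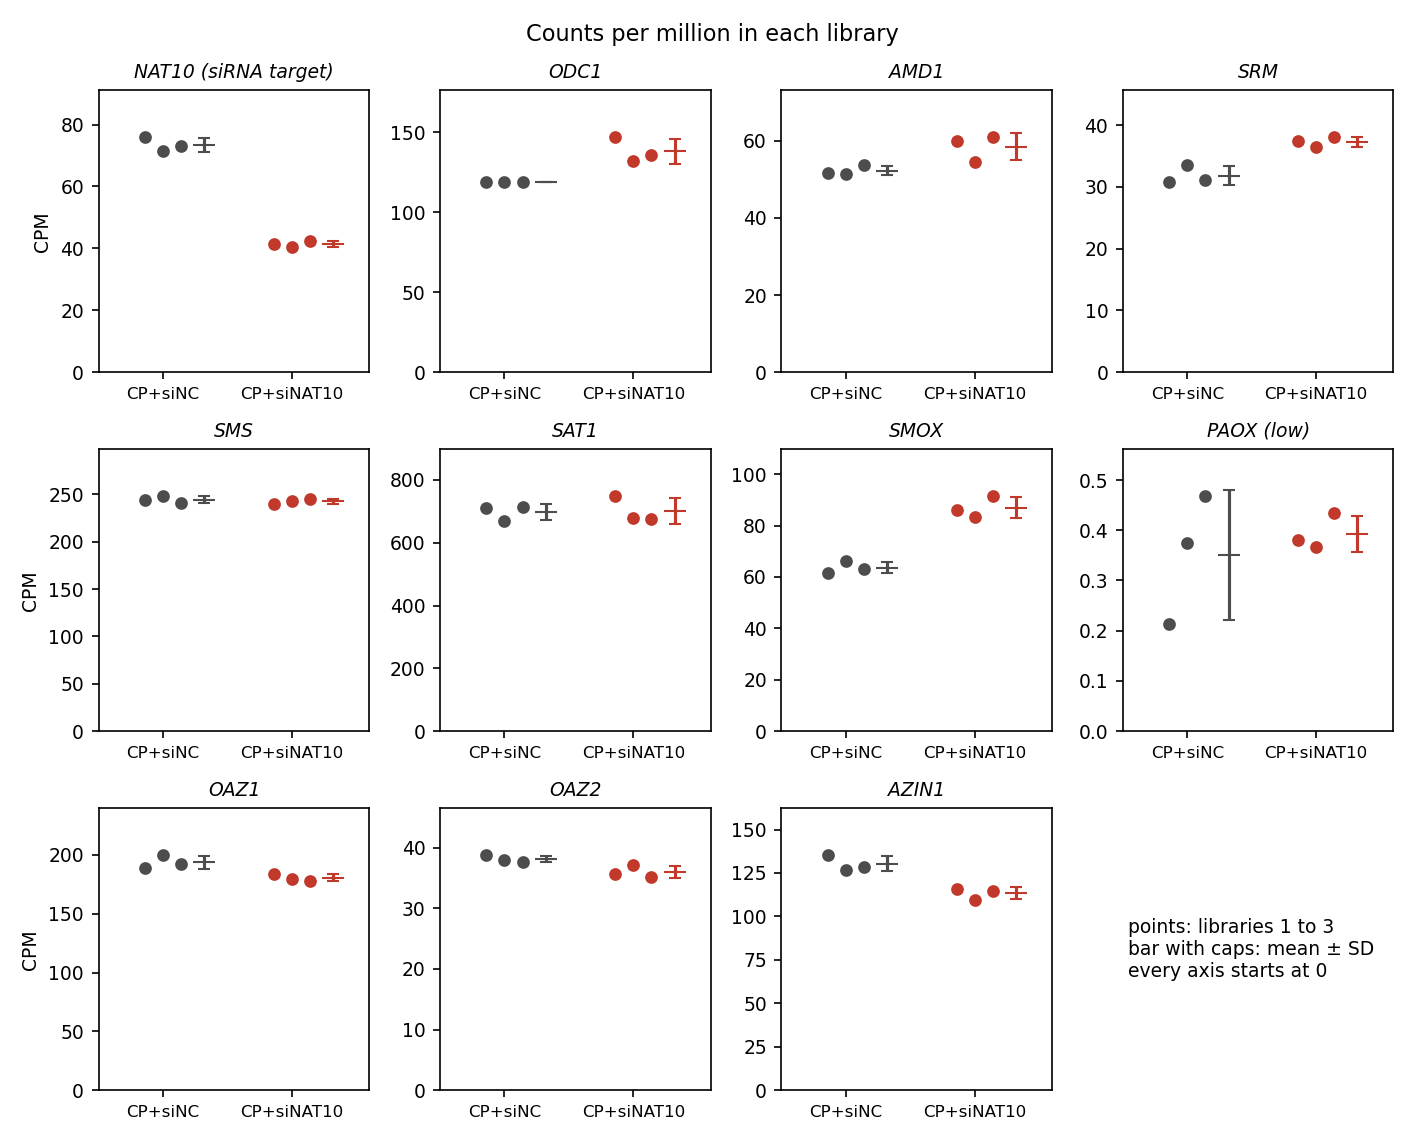
CPM of NAT10 and of the 10 polyamine genes in each library (points, vertical axes from 0) with the mean and SD of the 3 libraries of each group (bars with caps). The siNAT10 points of ODC1, AMD1, SRM and SMOX lie above all siNC points, and those of OAZ1, OAZ2 and AZIN1 lie below them.

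Synthesis begins with ODC1, the rate-limiting enzyme of the pathway (chr2:10439968-10448309, minus strand, GRCh38). ODC1 was at 118.6, 118.8 and 118.9 CPM in CP+siNC and at 146.6, 131.7 and 135.7 CPM in CP+siNAT10. The siNC libraries were nearly equal, all siNAT10 libraries were above them, and siNAT10 replicate 1 was the highest. Means were 118.8 ± 0.165 and 138.0 ± 7.72 CPM (SD, n = 3 each). ODC1 rose with a log2 fold change of 0.22 (SE 0.0380), an increase of 16.1%, with an adjusted p = 2.91e-05 in the edgeR quasi-likelihood test (Benjamini-Hochberg). These values rest on 2233 to 3439 counts per library. The divergent transcript ODC1-DT, which starts on the opposite strand next to ODC1 and does not overlap it, was chosen after its values were seen. It had 30, 28 and 23 counts in CP+siNC and 44, 44 and 65 in CP+siNAT10, and its log2 fold change was 0.71 (SE 0.199) with an adjusted p = 0.0041 by the same edgeR test (Benjamini-Hochberg).

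AMD1, the decarboxylase that turns SAM into the aminopropyl donor, lies at chr6:110874770-110895708 on the plus strand. AMD1 was at 51.6, 51.5 and 53.6 CPM in CP+siNC and at 60.0, 54.6 and 60.9 CPM in CP+siNAT10. The groups did not overlap, but siNAT10 replicate 2 was only slightly above the highest siNC library. AMD1 rose with a log2 fold change of 0.17 (SE 0.0455), an increase of 12.1%, with an adjusted p = 0.00378 (edgeR quasi-likelihood, Benjamini-Hochberg). SRM, the spermidine synthase (chr1:11054584-11060020, minus strand), was at 30.8, 33.6 and 31.2 CPM in CP+siNC and at 37.4, 36.5 and 38.0 CPM in CP+siNAT10. All siNAT10 libraries were higher than all siNC libraries, and the siNAT10 libraries were close together. SRM rose with a log2 fold change of 0.23 (SE 0.0498), an increase of 17.0%, with an adjusted p = 4.38e-04 (edgeR quasi-likelihood, Benjamini-Hochberg).

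SMS, the spermine synthase, did not follow the other synthesis genes past the test. SMS was at 244.5, 247.8 and 240.9 CPM in CP+siNC and at 240.0, 243.3 and 245.1 CPM in CP+siNAT10. The groups overlapped, and the log2 fold change was -0.010 (SE 0.0321, 95% interval from -0.072 to 0.053) with an adjusted p = 0.841 (edgeR quasi-likelihood, Benjamini-Hochberg). With 4604 to 6213 counts per library the interval was narrow, and it lay below the estimates of the other 3 synthesis genes. The count table also holds 10 pseudogenes of AMD1, SRM, SMS and OAZ1, with at most 41 counts over all 6 libraries (AMD1P3), and all were low.

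Promoters are shown for the synthesis genes that rose together, because ODC1 is a textbook target of MYC, whose dimer with MAX binds the E-box CACGTG, and because MYC itself was higher in CP+siNAT10. MYC was at 65.6, 66.7 and 62.6 CPM in CP+siNC and at 74.6, 74.6 and 75.5 CPM in CP+siNAT10, with no overlap. Its log2 fold change was 0.20 (SE 0.0395) with an adjusted p = 9.2e-05 (edgeR quasi-likelihood, Benjamini-Hochberg). Among all tested genes, 21.8% were called higher. Promoter windows from RefSeq on GRCh38.p14 cover 250 bases before to 50 bases after an annotated start, and 7 of the 10 genes were matched by symbol, with 10 windows, all but SMOX, PAOX and AZIN1. CACGTG reads the same on both strands and was searched on both. It occurred in windows of 2 of the 7 genes, ODC1 and SRM, and in 7.26% of all 35116 windows. By gene, 8.77% of 27305 genes had it in any window. Of the ODC1 windows, the one at chr2:10447963-10448262 (minus strand) holds CACGTG at 2 places, beginning 29 bases before and 5 bases after its start. That start lies 297 bases inside the gene from the start given in the count table, and the window of the other start holds no match. SRM (chr1:11059969-11060268, minus strand) holds it 199 bases before the start. The AMD1 window nearest to the gene start of the count table (chr6:110874534-110874833, plus strand) is shown beside them and does not hold these letters. The capitals mark CACGTG, and a match describes the letters only, since no binding was measured. Whether MYC had a part in the changes of ODC1, SRM and AMD1 was not tested.
ODC1: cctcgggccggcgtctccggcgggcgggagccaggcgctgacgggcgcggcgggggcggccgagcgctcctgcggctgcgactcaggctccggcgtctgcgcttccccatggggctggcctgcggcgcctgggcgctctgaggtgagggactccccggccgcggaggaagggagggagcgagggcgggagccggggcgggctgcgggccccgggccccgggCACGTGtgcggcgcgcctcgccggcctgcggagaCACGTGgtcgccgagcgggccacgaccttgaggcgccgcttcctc
SRM: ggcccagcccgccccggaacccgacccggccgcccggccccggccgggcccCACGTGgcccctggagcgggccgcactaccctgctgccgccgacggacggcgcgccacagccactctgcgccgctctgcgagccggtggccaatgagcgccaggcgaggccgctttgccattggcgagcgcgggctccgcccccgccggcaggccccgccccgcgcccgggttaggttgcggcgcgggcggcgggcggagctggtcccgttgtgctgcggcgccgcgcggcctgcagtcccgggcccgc
AMD1: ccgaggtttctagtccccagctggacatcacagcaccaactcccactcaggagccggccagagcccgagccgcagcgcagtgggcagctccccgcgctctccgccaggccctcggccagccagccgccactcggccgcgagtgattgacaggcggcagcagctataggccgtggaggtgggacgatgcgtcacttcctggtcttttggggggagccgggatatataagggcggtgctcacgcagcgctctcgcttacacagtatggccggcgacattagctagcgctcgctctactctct

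Breakdown begins with SAT1, the acetyltransferase that limits polyamine catabolism and the gene with the most counts of the 10. SAT1 was at 711.8, 668.9 and 712.4 CPM in CP+siNC and at 747.5, 678.9 and 674.3 CPM in CP+siNAT10. The highest and the lowest library fell in different groups, but the other libraries were mixed, so the groups overlapped. The log2 fold change was 0.005 (SE 0.0381, 95% interval from -0.070 to 0.080) with an adjusted p = 0.931 (edgeR quasi-likelihood, Benjamini-Hochberg). SAT1 is uncertain in its level, because a separate entry of 90 bases (chrX:23783278-23783367) lies wholly inside its exon chrX:23783173-23783417 of GENCODE 29 on the same strand. That entry held 64075 counts over the 6 libraries, or 71.9% of the number held by SAT1, and its log2 fold change was -0.060 with an adjusted p = 0.333 (edgeR quasi-likelihood, Benjamini-Hochberg). How a read pair on both was counted is not given in the sources used here.

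SMOX, the spermine oxidase (chr20:4120980-4187747, plus strand), showed the largest change of the 9 genes. SMOX was at 61.7, 66.1 and 63.0 CPM in CP+siNC and at 85.9, 83.3 and 91.3 CPM in CP+siNAT10. The lowest siNAT10 library was well above the highest siNC library. Means were 63.6 ± 2.27 and 86.8 ± 4.09 CPM (SD, n = 3 each). SMOX rose with a log2 fold change of 0.45 (SE 0.0421), an increase of 36.5%, with an adjusted p = 7.04e-10 (edgeR quasi-likelihood, Benjamini-Hochberg). It was between 0.41 and 0.49 over the 12 alternatives tried. The profile of SMOX over the 6 libraries, as log2 CPM around its mean, was compared with 12303 tested genes of at least 5 CPM. SEC24D, GUCD1 and DPP9 were the nearest, with root mean square distances of 0.0240, 0.0276 and 0.0296. Their log2 fold changes were 0.41, 0.47 and 0.42.

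PAOX, the oxidase of acetylated polyamines, was low. It had 4, 8 and 9 counts in CP+siNC and 8, 8 and 11 counts in CP+siNAT10, or 0.212 to 0.467 CPM. The groups overlapped, and no difference was detectable at this depth. Fitted without a filter, the log2 fold change was 0.17 (SE 0.434) with an adjusted p = 0.848 (edgeR quasi-likelihood, Benjamini-Hochberg). A longer entry of the count table on the same strand (chr10:133380017-133420271) covers most of PAOX and runs on over the neighbouring gene MTG1. It held 2231 counts against 48 of PAOX, so the level of PAOX is uncertain as well. That entry of the table had a log2 fold change of 0.40 with an adjusted p = 1.94e-05 (edgeR quasi-likelihood, Benjamini-Hochberg), and MTG1 was named after its values were seen.

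Regulation of ODC1 protein is carried by OAZ1, the main antizyme. OAZ1 was at 189.1, 199.5 and 192.1 CPM in CP+siNC and at 183.7, 179.8 and 178.0 CPM in CP+siNAT10. All siNAT10 libraries were lower than all siNC libraries, with a small gap. OAZ1 fell by 6.79%, a log2 fold change of -0.10 (SE 0.0336), with an adjusted p = 0.015 (edgeR quasi-likelihood, Benjamini-Hochberg). This call was not kept throughout. With library size only, the log2 fold change was -0.064 with an adjusted p = 0.131, and over 12 alternatives the adjusted p was between 0.00866 and 0.131 (edgeR quasi-likelihood or DESeq2, Benjamini-Hochberg). OAZ1 also shares its span with a longer entry on the same strand that held 9942 counts, or 41.7% of the number held by OAZ1, and fell with a log2 fold change of -0.12 (SE 0.0444, adjusted p = 0.031, edgeR quasi-likelihood, Benjamini-Hochberg).

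OAZ2, an antizyme of lower level per kilobase, was at 38.7, 38.0 and 37.7 CPM in CP+siNC and at 35.6, 37.1 and 35.2 CPM in CP+siNAT10. The groups did not overlap, but the gap was small and the test was not passed. The log2 fold change was -0.086 (SE 0.0471, 95% interval from -0.18 to 0.007) with an adjusted p = 0.146 (edgeR quasi-likelihood, Benjamini-Hochberg). AZIN1, the antizyme inhibitor, was at 135.1, 126.9 and 128.6 CPM in CP+siNC and at 115.7, 109.3 and 114.8 CPM in CP+siNAT10. All siNAT10 libraries were clearly below all siNC libraries. AZIN1 fell by 12.9%, a log2 fold change of -0.20 (SE 0.0367), with an adjusted p = 4.93e-05 (edgeR quasi-likelihood, Benjamini-Hochberg). Antizyme and antizyme inhibitor act in opposite directions on ODC1 protein, and the mRNA of OAZ1 and of AZIN1 fell in the same libraries. Protein and polyamine levels were not measured in these files.

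**Figure D2:**
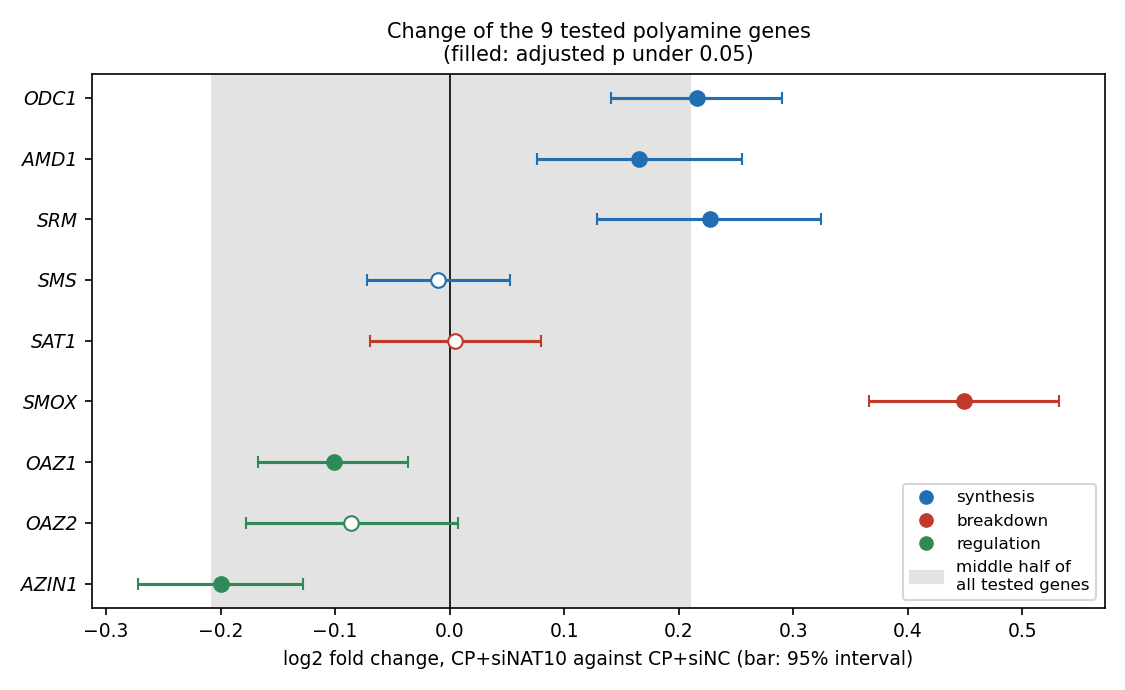
Log2 fold change of CP+siNAT10 against CP+siNC with its 95% interval for the 9 tested polyamine genes, coloured by role, and the middle 50% of all tested genes as a grey band from -0.21 to 0.21. SMOX is farthest from 0 at 0.45, ODC1 and SRM lie near the upper edge of the band, and AZIN1 lies near its lower edge.

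Levels were compared between genes as CPM per kilobase of gene length, which depends on the annotated length (1894 bases for SRM and 10193 for AMD1). In CP+siNC the order per kilobase was SAT1 at 281, SMS at 115, OAZ1 at 56.3, ODC1 at 35.9, SMOX at 21.6, AZIN1 at 21.2, SRM at 16.8, AMD1 at 5.12, OAZ2 at 4.97 and PAOX at 0.156. The libraries of SMOX and AZIN1 overlapped, and all other neighbours in this order were separate in all 3 libraries. The levels of SAT1, OAZ1 and PAOX, and so the place of PAOX in the order, are uncertain because other entries overlap them on the same strand. In CP+siNAT10 the order per kilobase was the same down to SMOX, now at 29.5, followed by SRM at 19.7 and AZIN1 at 18.5, with no overlap between neighbours. SMOX and AZIN1 were thus level in CP+siNC and apart in CP+siNAT10, and SRM and AZIN1 changed places. AMD1 and OAZ2 were close in CP+siNC and were at 5.74 and 4.69 per kilobase in CP+siNAT10. Together the 10 genes took 0.154% to 0.167% of all counts of a library, and SAT1 alone took 42.9% to 45.2% of theirs.

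**Figure D3:**
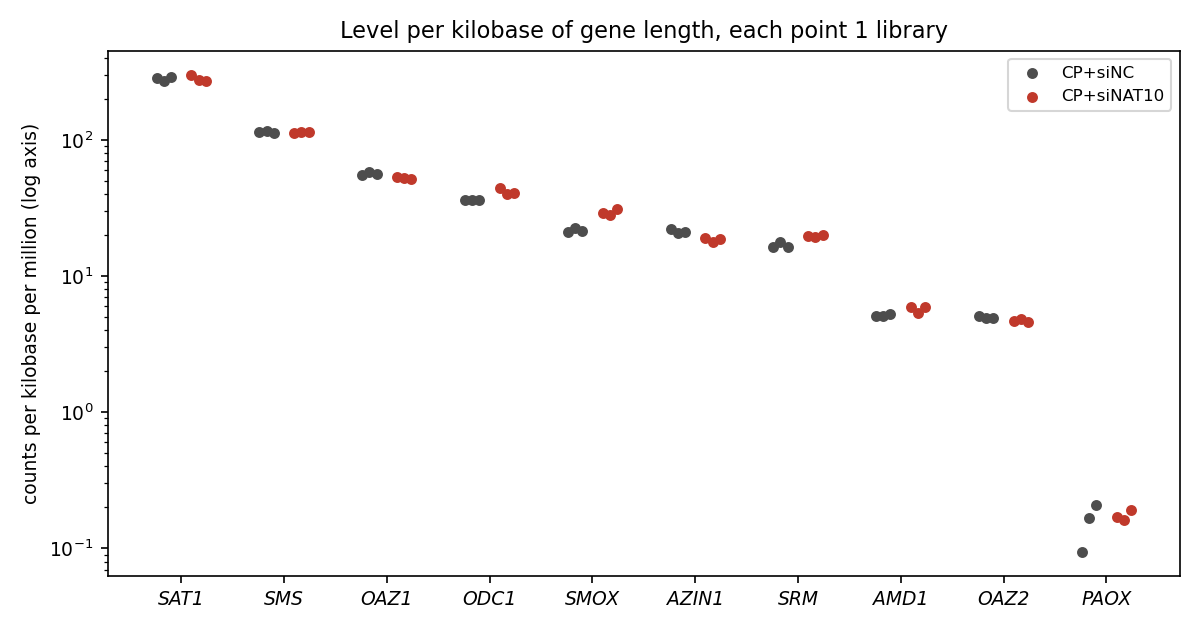
CPM per kilobase (log axis) of the 10 polyamine genes, each point 1 library, ordered by the mean of CP+siNC. SAT1 lies at 281 and PAOX at 0.156 in CP+siNC, and SMOX and AZIN1 share a level in CP+siNC and separate in CP+siNAT10.

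Ratios of levels per kilobase were given for each library without a test. ODC1 relative to OAZ1 plus OAZ2 was 0.597, 0.570 and 0.591 in CP+siNC and 0.763, 0.697 and 0.727 in CP+siNAT10. All siNAT10 libraries were higher, with means of 0.586 ± 0.0139 and 0.729 ± 0.0333 (SD, n = 3 each). AZIN1 relative to OAZ1 plus OAZ2 was 0.367, 0.328 and 0.345 in CP+siNC and 0.325, 0.312 and 0.332 in CP+siNAT10, and the groups overlapped. The mean AZIN1 ratio was 0.347 in CP+siNC and 0.323 in CP+siNAT10. The ODC1 ratio had to separate, because ODC1 was higher and both antizymes were lower in all siNAT10 libraries, so it adds no further result. Both ratios contain OAZ1, whose level is uncertain. SMS relative to SRM was 7.07, 6.56 and 6.88 in CP+siNC and 5.71, 5.93 and 5.74 in CP+siNAT10, with all siNAT10 libraries lower. SAT1 relative to SRM plus SMS was between 2.01 and 2.22 in CP+siNC and between 2.01 and 2.27 in CP+siNAT10, and the groups overlapped.

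Other genes of polyamine metabolism were examined as lists. Of 6 further regulators and paralogues, 4 were tested and 3 were lower, where 22.3% of all tested genes were called lower, with a median log2 fold change of -0.38 against 0.007 over all tested genes. NQO1, a quinone reductase that binds ODC1 protein and protects it from degradation, was at 113.2, 110.7 and 108.5 CPM in CP+siNC and at 77.7, 76.1 and 73.3 CPM in CP+siNAT10. All siNAT10 libraries were far below the siNC libraries, and the log2 fold change was -0.55 (SE 0.0375, adjusted p = 1.07e-12, edgeR quasi-likelihood, Benjamini-Hochberg). AZIN2, a paralogue of AZIN1, was at 9.59 ± 0.903 and 6.75 ± 0.467 CPM (SD, n = 3 each), with a log2 fold change of -0.51 and an adjusted p = 7.85e-05 (edgeR quasi-likelihood, Benjamini-Hochberg). OAZ3, an antizyme known from the testis, had a log2 fold change of -0.24 and an adjusted p = 0.0014 (edgeR quasi-likelihood, Benjamini-Hochberg). Its span overlaps MRPL9 and TDRKH on the other strand, which held more counts. A further entry on that strand held 50.6% of the number held by OAZ3, so the values of OAZ3 are uncertain. The SAT1 paralogue SAT2 was at 14.8 ± 0.481 and 13.1 ± 1.25 CPM (SD, n = 3 each) and was not called. SATL1 was low, with 10, 8 and 9 counts in CP+siNC and 4, 2 and 6 in CP+siNAT10, and AOC1, the diamine oxidase, had 0 counts in all 6 libraries.

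Supply of ornithine and SAM was covered by 11 genes, of which 9 were tested, with 4 higher, 2 lower and 3 not called (median log2 fold change 0.096), against 21.8% higher and 22.3% lower among all tested genes. ASS1, which makes the precursor of arginine in the urea cycle, was at 4.06 ± 0.307 and 6.78 ± 0.587 CPM (SD, n = 3 each), with a log2 fold change of 0.73 (SE 0.116) and an adjusted p = 6.62e-06 (edgeR quasi-likelihood, Benjamini-Hochberg). SLC7A1, the main transporter of arginine and ornithine into cells, was at 14.9, 14.3 and 15.3 CPM in CP+siNC and at 19.9, 22.6 and 20.7 CPM in CP+siNAT10. The groups were well apart, with a log2 fold change of 0.51 (SE 0.0669) and an adjusted p = 3.77e-07 (edgeR quasi-likelihood, Benjamini-Hochberg). AGMAT, annotated as agmatinase, and ARG2, the mitochondrial arginase that releases ornithine, had log2 fold changes of 0.34 and 0.31, and both overlap a gene on the other strand with more counts. AGMAT was not called by DESeq2, where its adjusted p = 0.105, and over its 12 alternatives the adjusted p was between 0.00809 and 0.105. Among the genes that fell, MAT2A, which makes SAM, was at 200.1 ± 3.79 and 172.2 ± 3.78 CPM (SD, n = 3 each), with a log2 fold change of -0.22 and an adjusted p = 4.06e-06 (edgeR quasi-likelihood, Benjamini-Hochberg). MAT2A is uncertain because its span overlaps GGCX on the other strand, which held 21.7% of the number held by MAT2A. SLC7A2, a related transporter, was at 1.09 and 0.614 CPM, with a log2 fold change of -0.82 and an adjusted p = 0.0155 (edgeR quasi-likelihood, Benjamini-Hochberg), and was not called by DESeq2, with an adjusted p = 0.101 and a range of 0.0152 to 0.101 over its alternatives. ARG1 and MAT1A, the liver forms, were low, and OAT, MAT2B and AHCY were not called.

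Methylthioadenosine, the by-product of SRM and SMS, is returned to methionine by 5 listed genes, all tested, of which 3 were lower and 2 were not called (median log2 fold change -0.16), where 22.3% of all tested genes were called lower. MRI1 was at 31.9 ± 0.531 and 23.9 ± 0.573 CPM (SD, n = 3 each), with a log2 fold change of -0.42 and an adjusted p = 1.19e-07 (edgeR quasi-likelihood, Benjamini-Hochberg). ADI1 and ENOPH1 had log2 fold changes of -0.19 and -0.16. The span of ADI1 overlaps an entry on the other strand that held 37.2% of the number held by ADI1. MTAP, the first enzyme of the route, was at 23.5, 23.4 and 25.2 CPM in CP+siNC and at 23.7, 22.5 and 23.3 CPM in CP+siNAT10 and was not called, and neither was APIP, which is uncertain because PDHX on the other strand overlaps it with more counts. Spermidine is also used to make hypusine on EIF5A. Of 4 genes of this step, EIF5A2 and DHPS were lower and EIF5A and DOHH were not called (median log2 fold change -0.15), so 50% were called against 44.1% of all tested genes. The span of EIF5A overlaps GPS2 on the other strand, which held 79.8% of the number held by EIF5A, so EIF5A is uncertain. EIF5A2, a paralogue of EIF5A, was at 37.0 ± 0.286 and 29.2 ± 1.36 CPM (SD, n = 3 each), with a log2 fold change of -0.34 and an adjusted p = 1.82e-06 (edgeR quasi-likelihood, Benjamini-Hochberg). DHPS, the enzyme that uses spermidine, had a log2 fold change of -0.29 (SE 0.0526), but another entry on the same strand over its span held more counts, so DHPS is uncertain.

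Of the genes of polyamine transport, 7 were tested, with 2 higher, 2 lower and 3 not called (median log2 fold change -0.013), against 21.8% higher and 22.3% lower among all tested genes. SLC12A8, linked to polyamine uptake, was at 3.39 ± 0.215 and 5.24 ± 0.396 CPM (SD, n = 3 each), with a log2 fold change of 0.63 and an adjusted p = 1.48e-04 (edgeR quasi-likelihood, Benjamini-Hochberg). GPC1, a heparan sulfate proteoglycan that takes part in spermine uptake, was at 12.9, 14.4 and 15.3 CPM in CP+siNC and at 22.6, 23.0 and 20.3 CPM in CP+siNAT10. The groups did not overlap, and the log2 fold change was 0.62 (SE 0.0711, adjusted p = 2.82e-08, edgeR quasi-likelihood, Benjamini-Hochberg). SLC3A2 and CAV1 were lower, with log2 fold changes of -0.18 and -0.14. The call of CAV1 was lost with library size only and without CP+siNAT10 replicate 3, where the log2 fold change was -0.098 and -0.11. ATP13A2 and ATP13A3, which move polyamines out of endosomes and lysosomes, and SLC18B1 were not called. SLC22A2, SLC22A3, SLC47A1 and ATP13A4 were low.

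The MYC network had 9 genes, of which 8 were tested, with MYC and MGA higher, MXD4, MXI1 and MXD3 lower, and MAX, MXD1 and MNT not called (median log2 fold change -0.023), against 21.8% higher and 22.3% lower among all tested genes. MXD4 and MXI1, which compete with MYC for MAX, had log2 fold changes of -0.34 (SE 0.0446) and -0.34 (SE 0.0589). MXD3 had a log2 fold change of -0.20 (SE 0.0359) but overlaps PRELID1 on the other strand with more counts. RAB24 on the same strand also overlaps MXD3 and held 23.6% of the number held by MXD3. MGA, another partner of MAX, had a log2 fold change of 0.31 (SE 0.0380). MAX itself was at 108.3, 103.9 and 109.3 CPM in CP+siNC and at 123.2, 119.6 and 98.9 CPM in CP+siNAT10. In CP+siNAT10 replicate 3 it was lower than in every other library, and without that library its log2 fold change was 0.18 with an adjusted p = 5.49e-04, against 0.084 and an adjusted p = 0.2 with all 6 libraries (edgeR quasi-likelihood, Benjamini-Hochberg), in a range of adjusted p from 5.49e-04 to 0.74 over its alternatives. MAX and MXD1 are uncertain. An entry on the other strand that overlaps the span of MAX held 47.0% of the number held by MAX. SNRNP27 on the same strand overlaps MXD1 with more counts. MYCN was low.

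**Figure D4:**
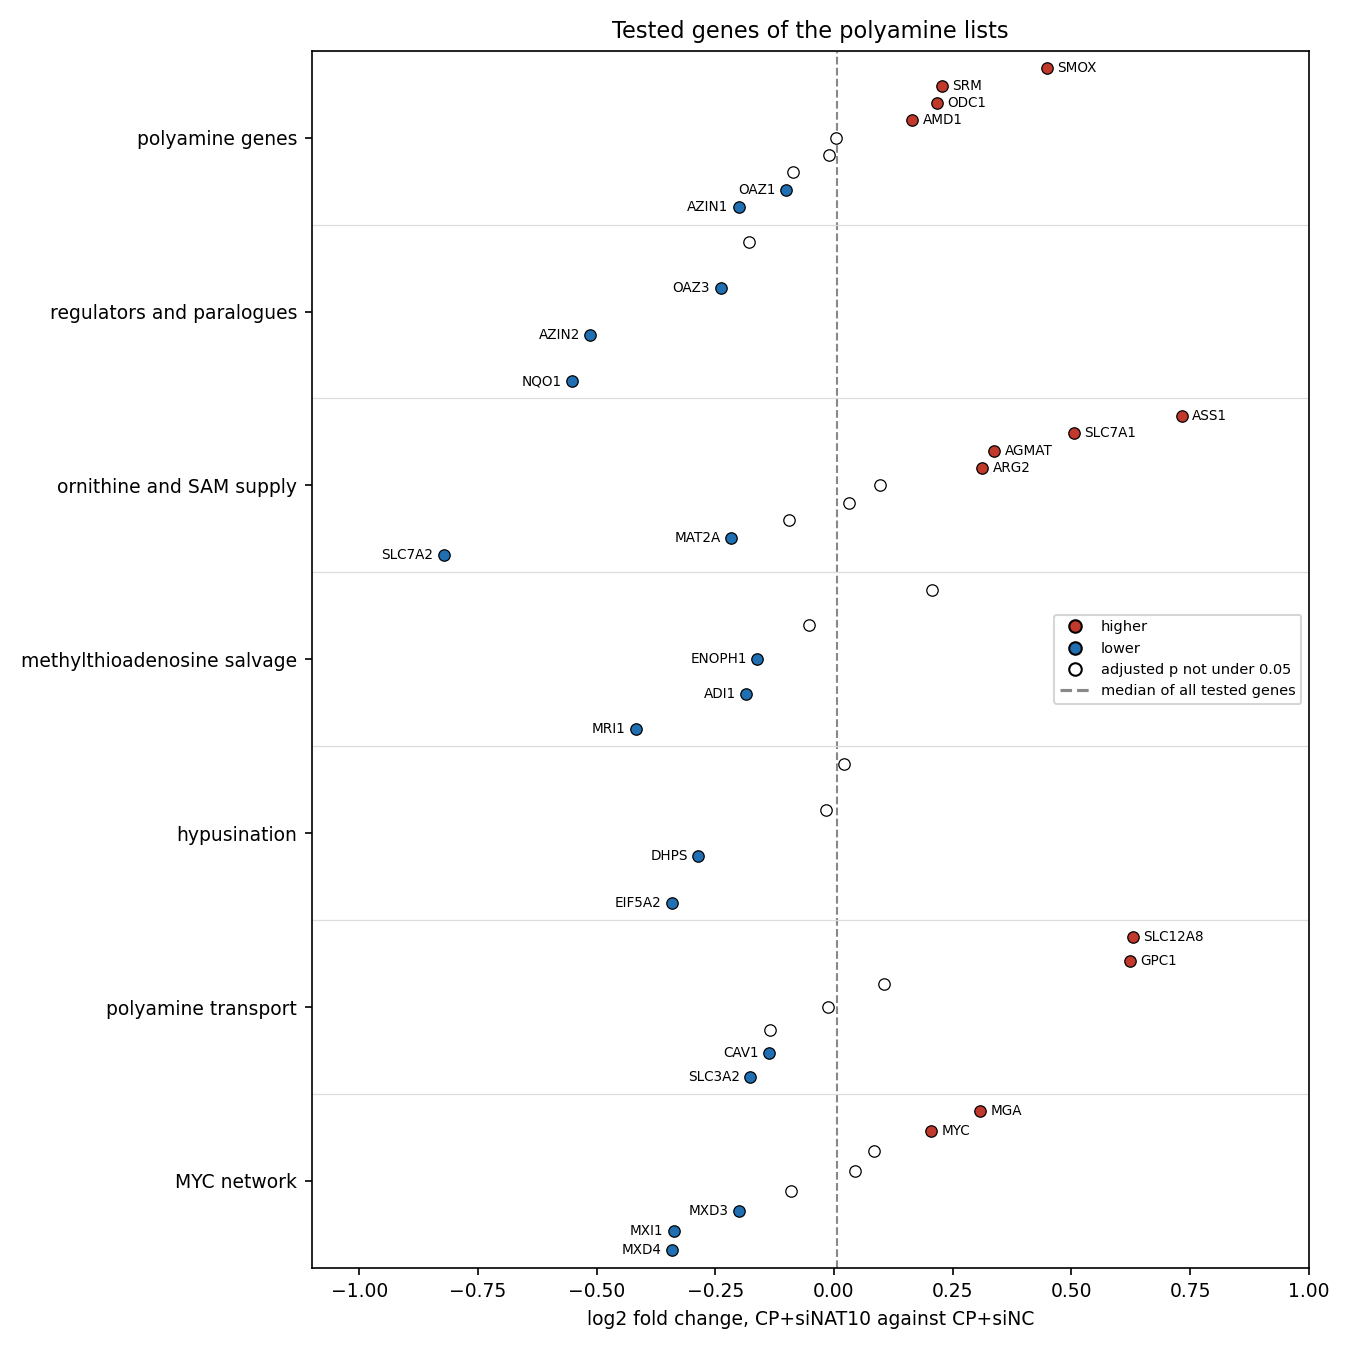
Log2 fold change of CP+siNAT10 against CP+siNC for each tested gene of the polyamine genes and of the 6 lists around them, filled where the adjusted p was under 0.05, with the median of all tested genes (0.007) as a dashed line. No called gene of the regulators, the methylthioadenosine list or the hypusination list lies to the right of the line, and the supply and transport lists hold called genes on both sides.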

How the data were processed

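Stranded RNA-seq libraries with molecular identifiers were made from 3 samples per group, which were assigned by their labels. The deposited table holds raw counts per gene from the authors, with positions and gene lengths. The submitters' processing notes name Trimmomatic 0.36, STAR 2.5.3a, featureCounts from Subread 1.5.1, edgeR 3.12.1 and the build GRCh38. The annotation release, the use of strand in counting and the merging of identifiers are not given in the sources used here. Genes of at most 150 bases inside a GENCODE 29 exon of another gene with at least 1000 counts were checked. At least 10 counts in 3 libraries were held by 128 of 333 such genes on the same strand and by 17 of 59 on the other strand. Overlaps are therefore stated for polyamine genes and tested genes of the lists where the total count of another gene was over 20% of theirs, and their levels are uncertain. Overlap means that the spans from start to end meet, introns included, and reads shared by both genes were not counted.

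The analysis ran in R 4.3.3, using edgeR 4.0.16 (with limma 3.58.1). Genes with too few counts were removed by filterByExpr (a CPM equal to 10 counts at the median library size in at least 3 libraries, and at least 15 counts in total), leaving 19874 of 62754 genes. TMM factors scaled the libraries. The 2 groups were then compared by glmQLFit and glmQLFTest, and p-values were adjusted by Benjamini-Hochberg over all tested genes. Called genes had an adjusted p under 0.05, and 1 was used as a further limit on the size of the log2 fold change. Standard errors come from the log2 fold change and its F statistic, and 95% intervals use a normal quantile. All value columns of the table were assigned to a sample. CPM and levels per kilobase were computed from the counts with TMM-scaled library sizes. The code was tested on simulated data.

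All polyamine genes, NAT10 and genes of the lists were named, with values for the called genes of largest change (up to 3 per direction and list), and for the polyamine gene with the smallest p the 3 genes nearest in profile. Markers, genes that overlap polyamine genes and pseudogenes were named where their levels matter. The polyamine genes and the lists were chosen with earlier results of these data known. Alternatives were other scalings and filters, DESeq2 1.42.0, the replicate number as a block, and leaving out each library. Promoters were read from a RefSeq table, and figures were drawn in Python 3.11.15 with matplotlib 3.10.9.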

Additional observations from a re-analysis of the deposited data

How the results depend on the processing

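ODC1, AMD1, SRM, SMOX, AZIN1 and NAT10 kept their direction and their call under all 12 alternatives, and SMS, SAT1 and OAZ2 were called under none. OAZ1 lost its call with library size only (-0.064, adjusted p = 0.131) and without a filter (-0.090, adjusted p = 0.0551), both in edgeR. It was also lost without CP+siNC replicate 2 (-0.084), CP+siNAT10 replicate 2 (-0.098) or CP+siNAT10 replicate 3 (-0.090), in a leave-one-out range of -0.12 to -0.084, and the adjusted p was between 0.00866 and 0.131 over all alternatives. Polyamine genes called lower were then 1 instead of 2 in each of these settings, from 1 to 2 when single libraries were left out. Supply genes called lower were 1 instead of 2 with at least 50 counts in 3 libraries, with DESeq2 and without CP+siNC replicate 2 (range 1 to 2). Transport genes called lower were 1 instead of 2 with library size only and without CP+siNAT10 replicate 3 (range 1 to 2). In the methylthioadenosine list, APIP was called higher without CP+siNC replicate 1 at 0.33 (range of genes called higher 0 to 1). Without a filter, SATL1, which was low, was called lower (-1.33, adjusted p = 0.0389 in edgeR), so regulators called lower were 4 instead of 3. SAT2 was called without CP+siNAT10 replicate 1 (-0.25) and with at least 50 counts, AGMAT was not called without CP+siNAT10 replicate 1 (0.31), ATP13A2 was called without CP+siNC replicate 2 (0.15) and, like MAT2B, with library size only. SLC7A2 was not called without CP+siNC replicate 2 (-0.77). Genes past both limits numbered 711 without a filter and 201 with at least 50 counts, against 464. The cause was not tested. Library size only called 5050 genes higher and 3786 lower, against 4331 and 4440. Of 563 log2 fold changes under alternatives, 545 kept their side of the adjusted p threshold, and 11 of genes that were not called, among them SMS and SAT1, changed direction. With the replicate number as a block, 4208 genes were called higher and 4318 lower. Deviations of libraries with the same number correlated at -0.042, 0.011 and -0.14 across 19874 genes, which are not independent replicates. Those of libraries with different numbers correlated at -0.115 to 0.147. These values showed no pairing by number, but 3 libraries per group are too few to exclude it. No polyamine gene changed its call under the block. Depth limited PAOX, and every other polyamine gene had at least 579 counts in a library.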
